A study of Mus musculus with 4 samples.

Results

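The signals of 10 genes of the epithelial-mesenchymal transition were followed in B16-F10 mouse melanoma cells sorted by their surface level of Met, the receptor for hepatocyte growth factor. They were the 6 transcription factor genes *Snai1*, *Snai2*, *Zeb1*, *Zeb2*, *Twist1* and *Twist2*, the cadherin genes *Cdh1* and *Cdh2*, and the mesenchymal genes *Vim* and *Fn1*. Members were all probes whose accession matched 1 of these 10 genes in mouse RefSeq, which gave 12 of 39429 probes that are not controls. The array covered 20832 named genes. The rule for members used no measured value, but the genes were chosen with earlier results of these data known.

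B16-F10 is an established line of malignant melanoma from mouse skin, grown in RPMI medium with fetal bovine serum, and the labels name no further agent for either population. Cells were divided with a cell sorter into Met-low and Met-high populations, which were then kept in culture apart for 3 days before total RNA was taken. There were 2 samples of each population, each on its own 1-colour Cy3 array, and the study describes the cells as prepared independently. Both populations came from 1 line, so that the samples speak for this line only. RNA was taken from whole populations, in which fewer cells that express a gene and less RNA per cell cannot be told apart.

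In epithelial tissue, E-cadherin, the product of *Cdh1*, ties cells to their neighbours. Transcription factors of the Snail, Zeb and Twist families bind short DNA motifs called E-boxes and can repress *Cdh1*, and cells that go through the transition often gain N-cadherin (*Cdh2*), vimentin (*Vim*) and fibronectin (*Fn1*). This exchange of cadherins is known as the cadherin switch. Melanocytes come from the neural crest, where *Snai2* and *Zeb2* are part of the normal development of the lineage, so that these factors have roles in pigment cells that they lack in most epithelia.

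In these data, *Snai2* and *Zeb2* had lower mean signals in the Met-high population, with no overlap of the arrays. Met-low arrays lay above Met-high arrays without overlap for 23.0% of all tested probes, and the reverse held for 32.4%. Neither gene passed an adjusted p under 0.05 in the test without a replicate block. With the replicate number as a block, *Snai2* (adjusted p = 0.0205 from limma) and both *Zeb2* probes (0.0203 and 0.0311) passed. The numbers mark no stated pairing, and that fit called more probes in both directions over all tested probes. *Cdh1*, *Zeb1*, *Twist1* and *Twist2* stayed at background on all arrays of both populations. *Cdh2*, *Vim* and *Fn1* were well above background on all 4 arrays, and their differences were within the error of the test. The arrays of the *Cdh2* probe A_55_P2029711 did not overlap either, with Met-low on top. Of the 12 probes, 7 were tested, which covered 5 of the 10 genes.

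Values below are log2 signals, each relative to the 75th percentile of its own array. "Well above background" is the flag the scanner software gives to a spot, and the lowest intensity with that flag was between 27.6 and 41.4 on the 4 arrays. Levels were not compared between probes, since probes differ in how well they bind. The log2 ratio is the mean of the Met-high arrays minus that of the Met-low arrays. It was tested with limma and Benjamini-Hochberg adjustment over all 19796 probes whose signal was well above background on each array of 1 population or of both. The test called 2.63% of these probes at an adjusted p under 0.05, with 2.07% lower and 0.556% higher in Met-high cells. Of the 7 tested probes of the 10 genes it called 0 in either direction, and 3 were lower in Met-high cells at an unadjusted p under 0.05, as were 11.3% of all tested probes, while 0 were higher, as were 11.2% of all. The 3 were the probe of *Snai2* and both probes of *Zeb2*, of which the dimmer entered the test through its Met-low arrays alone, so that the filter favoured its direction. With 2 arrays against 2, an exact permutation test cannot give a two-sided p under 0.333.

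All 4 arrays came from 1 slide and 1 scan, and between 50.01% and 53.6% of their spots were well above background. The Met-low arrays lay side by side on the slide, as did the Met-high arrays, so that place on the slide and population cannot be told apart. *Met* itself had log2 signals of -0.26 and -0.89 in the Met-low samples, against 1.03 and -0.43 in the Met-high samples, so that Met-high replicate 2 lay between the Met-low arrays. Its log2 ratio was 0.87 (adjusted p = 0.403 from limma), and 96.9% of the tested probes had a lower ratio. By other measures, the study reports high purity after sorting and much higher *Met* mRNA in Met-high cells by quantitative RT-PCR. The 7 melanocyte markers *Mitf*, *Sox10*, *Tyr*, *Tyrp1*, *Dct*, *Pmel* and *Mlana* were well above background on all 4 arrays. Their summed linear signal, in units of the 75th percentile, was 1385 to 1691 in Met-low and 1493 to 1698 in Met-high cells, and 0 of the 7 were called. Of the fibroblast markers, 4 of 4 were above background on no array (summed signal 0.0416 to 0.0492 in Met-low and 0.0354 to 0.0421 in Met-high cells).

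**Figure D1:**
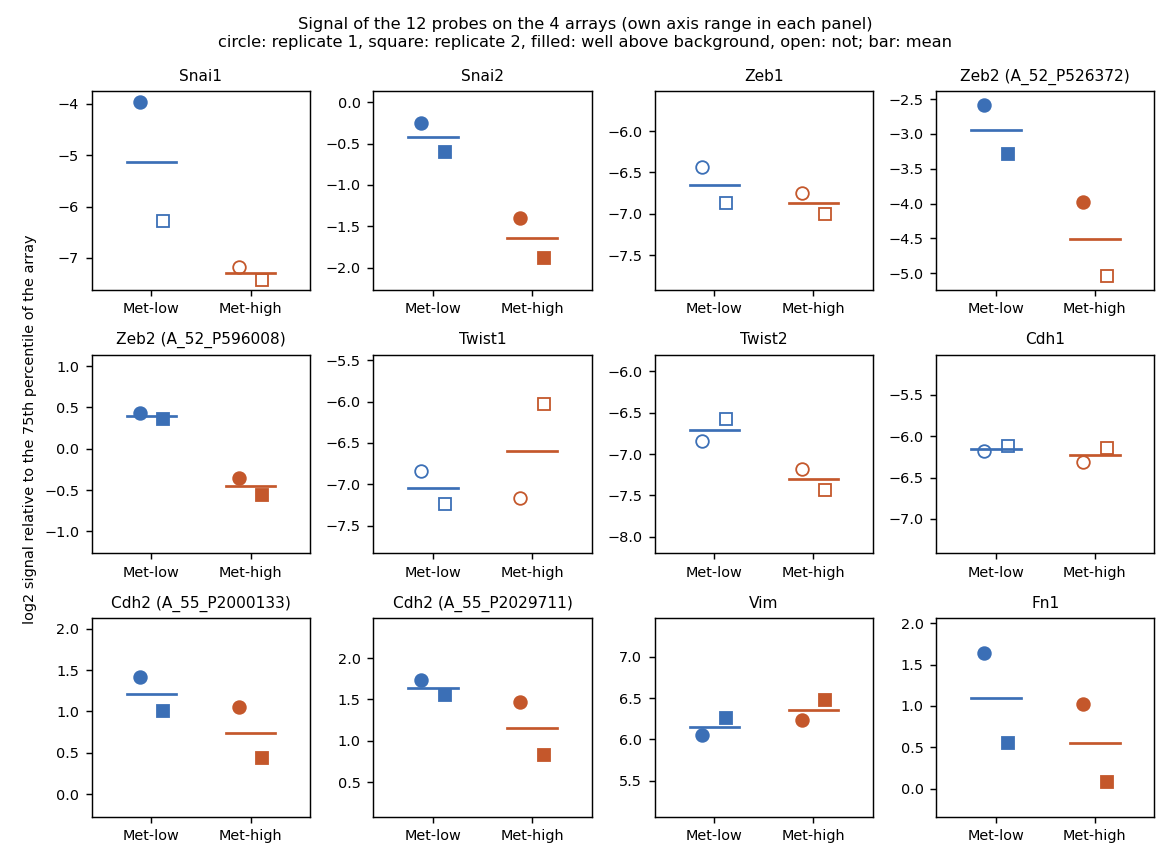
Log2 signal relative to the 75th percentile of the array (vertical axis, its own range in each panel) of the 12 probes in the 2 Met-low and 2 Met-high samples. Circles are replicate 1, squares replicate 2, filled symbols are well above background, open symbols are not, and bars are means. For *Snai2* and both *Zeb2* probes the Met-high symbols lie below the Met-low symbols, and *Zeb1*, *Twist1*, *Twist2* and *Cdh1* have only open symbols.

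Among the Snail family, *Snai2* encodes Slug, a zinc finger repressor that marks migrating neural crest cells. Its probe (NM_011415) read intensities of 790 and 876 in the Met-low samples, against 325 and 300 in the Met-high samples. Relative to the 75th percentile this gave -0.25 and -0.60 in Met-low and -1.40 and -1.89 in Met-high cells, or -0.43 ± 0.25 (SD, n = 2) against -1.65 ± 0.34 (SD, n = 2). Every Met-high value was thus lower, by between 0.80 and 1.64 on the log2 scale for single pairs of arrays.

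The log2 ratio of *Snai2* was -1.22 (standard error 0.25, 95% interval -1.86 to -0.57, adjusted p = 0.0882 from limma), a 2.32-fold higher level in Met-low cells (95% interval 1.49 to 3.64). A lower ratio was found for 4.23% of the tested probes. With only the brightest tested probe of each named gene, the adjusted p was 0.0534, and without a filter on dim probes it was 0.289. The log2 ratio was -0.97 without Met-high replicate 2 and -1.46 without Met-high replicate 1.

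*Snai1* encodes the founding member of the family and had 1 probe (NM_011427). It read 60.6 on Met-low replicate 1, where it was well above background, 17.1 on Met-low replicate 2, and 5.97 and 6.48 on the Met-high arrays, where it was not. The signal above background thus rests on 1 array, and the probe was not tested. No fold is given, since the Met-low mean lay below the lowest level that counts as well above background, averaged over the Met-high arrays. When Met-low replicate 2 was left out, *Snai1* entered the test and was called lower in Met-high cells (adjusted p = 0.0142 from limma), a call that rests on Met-low replicate 1 alone.

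Of the Zeb family, *Zeb2* encodes a large repressor with zinc fingers at both ends and a homeodomain, and it had a pair of probes with the same accession (NM_015753). The brighter of them (A_52_P596008) read 1268 and 1706 in the Met-low samples, against 675 and 754 in the Met-high samples. The log2 signals were 0.43 and 0.36 in Met-low and -0.35 and -0.56 in Met-high cells. The populations did not overlap, and the gap between their nearest arrays (0.70) was larger than the spread within either population, with means of 0.39 ± 0.05 (SD, n = 2) and -0.45 ± 0.15 (SD, n = 2).

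The log2 ratio of this probe was -0.85 (standard error 0.17, 95% interval -1.28 to -0.41, adjusted p = 0.084 from limma), a 1.8-fold higher level in Met-low cells (95% interval 1.33 to 2.43). A lower ratio was found for 7.48% of the tested probes. In the alternatives without a replicate block its log2 ratio ran from -0.99 to -0.73. The lowest adjusted p was 0.0535, with 1 probe for each gene, and the highest 0.323, without a filter on dim probes.

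The dimmer *Zeb2* probe (A_52_P526372) read 157 and 136 on the Met-low arrays, 54.4 on Met-high replicate 1 and 33.8 on Met-high replicate 2, where it was not well above background. Its log2 signals were -2.59 and -3.29 in Met-low and -3.98 and -5.04 in Met-high cells, again without overlap. The log2 ratio was -1.57 (standard error 0.44, 95% interval -2.73 to -0.41, adjusted p = 0.148 from limma). With a normexp background correction, whose offset of 50 draws the ratios of dim probes toward 0, it was -0.79. It was -2.10 without Met-high replicate 1 and -1.04 without Met-high replicate 2, so that its size is less certain than that of the brighter probe. The probe passed the filter through the population in which it was brighter, and 1 of 2 Met-high arrays measured it, so that its ratio adds no independent support to that of the brighter probe.

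*Zeb1*, the paralogue of *Zeb2*, had 1 probe (NM_011546) with intensities of 10.8 and 11.4 in the Met-low samples, against 8 and 8.67 in the Met-high samples. *Twist1* and *Twist2* encode basic helix-loop-helix factors of mesoderm and neural crest. The probe of *Twist1* (NM_011658) read 8.23 and 8.82 in the Met-low samples, against 5.96 and 17 in the Met-high samples, and that of *Twist2* (NM_007855) read 8.25 and 14 in the Met-low samples, against 5.92 and 6.44 in the Met-high samples. All were below the lowest intensity that counted as well above background on their arrays, so that no level of these genes and no difference between the populations was detectable with these probes.

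Promoter sequence is shown for *Snai1* and for 1 of the 4 start sites of *Zeb2*, with that of *Vim*, whose signal differed little between the populations, so that the letters these factors are known to bind can be read beside the values. RefSeq windows (GRCm38.p6) matched 5 of the 10 genes, *Snai1*, *Twist1*, *Twist2*, *Vim* and *Zeb2*, the last with 4 start sites. The 250 bases before each start were searched for the E-box CANNTG, which reads the same on both strands in this form, and for CAGGTG or its complement CACCTG, a form within it that Snail and Zeb factors are known to bind. An E-box was found in 66.2% and CAGGTG or CACCTG in 17.2% of all 32851 such windows. Of the 8 windows of the 10 genes, 1 held an E-box, that of *Snai1*, which begins at position -126 from the start and is written in capitals. The other 7 windows, those of *Zeb2* and *Vim* among them, held none of these letters.

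Snai1, chr2:167537945-167538194, plus strand: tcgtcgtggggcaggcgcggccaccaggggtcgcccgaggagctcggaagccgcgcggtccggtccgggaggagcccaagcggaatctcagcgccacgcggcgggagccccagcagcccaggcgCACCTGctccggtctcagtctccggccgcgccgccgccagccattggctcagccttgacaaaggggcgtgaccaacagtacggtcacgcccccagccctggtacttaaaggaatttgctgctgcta
Zeb2, farthest upstream start, chr2:45117443-45117692, minus strand: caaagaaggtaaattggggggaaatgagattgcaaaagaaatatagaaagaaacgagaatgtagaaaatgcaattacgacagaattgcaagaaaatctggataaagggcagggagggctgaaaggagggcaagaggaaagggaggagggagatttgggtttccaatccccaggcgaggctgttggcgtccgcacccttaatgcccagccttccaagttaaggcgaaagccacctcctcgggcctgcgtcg
Vim, chr2:13574061-13574310, plus strand: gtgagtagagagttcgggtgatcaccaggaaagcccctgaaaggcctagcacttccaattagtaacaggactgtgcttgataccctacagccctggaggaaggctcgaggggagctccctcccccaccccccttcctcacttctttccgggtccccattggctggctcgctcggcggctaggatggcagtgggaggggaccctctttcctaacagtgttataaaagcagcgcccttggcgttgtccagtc

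**Figure D2:**
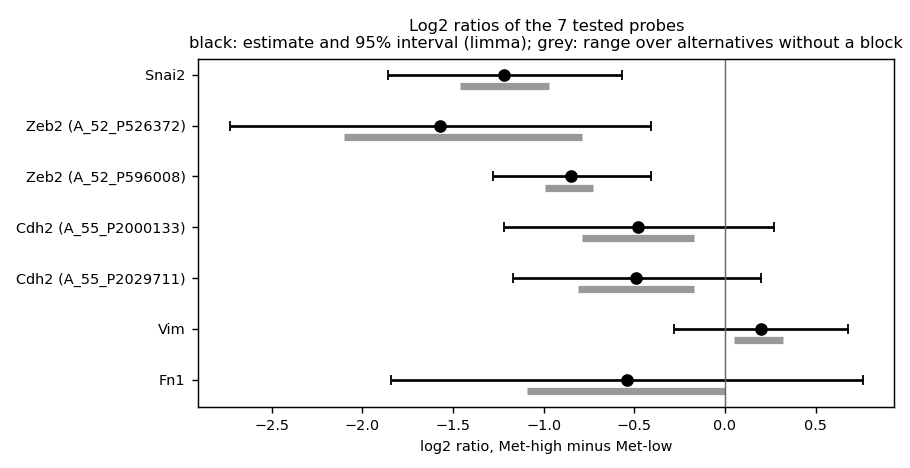
Log2 ratio, Met-high minus Met-low (horizontal axis), of the 7 tested probes; black points are limma estimates with 95% intervals, and grey bars are the ranges over the alternatives without a replicate block. The intervals of *Snai2* and of both *Zeb2* probes lie below 0, while those of *Cdh2*, *Vim* and *Fn1* include 0.

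The cadherins were read by 1 probe for *Cdh1* and a pair for *Cdh2*. The *Cdh1* probe (NM_009864) is printed on 10 spots of each array, of which 9 or 10 were free of outlier flags. The median over these spots was 12 and 22.3 in Met-low and 11.4 and 15.5 in Met-high cells, and 0 of the unflagged spots were well above background on any array. Single spots ranged from 8.8 to 21.6 and from 8.86 to 31 on the Met-low arrays and from 6.01 to 19.1 and from 12.7 to 18.9 on the Met-high arrays. The populations overlapped, and E-cadherin transcript was not detectable in either of them with this probe.

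N-cadherin transcript was well above background on all arrays with both *Cdh2* probes (NM_007664). One of them (A_55_P2029711) read 3122 and 3908 in the Met-low samples, against 2375 and 1982 in the Met-high samples, with log2 signals of 1.73 and 1.55 against 1.47 and 0.83. The Met-high arrays were below the Met-low arrays, the nearest of them by 0.09. The other probe (A_55_P2000133) had log2 signals of 1.42 and 1.01 in Met-low and 1.05 and 0.43 in Met-high cells, so that Met-high replicate 1 lay between the Met-low arrays.

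The log2 ratios of the *Cdh2* probes were -0.49 (standard error 0.26, 95% interval -1.17 to 0.20, adjusted p = 0.342 from limma) and -0.48 (standard error 0.28, 95% interval -1.22 to 0.27, adjusted p = 0.385), so that a difference of up to 2.26-fold or 2.33-fold in favour of Met-low cells stayed within the interval. Without Met-high replicate 2 both ratios were -0.17, and without Met-high replicate 1 they were -0.81 and -0.79. In both populations, then, the arrays showed *Cdh2* and no detectable *Cdh1*.

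*Vim* encodes vimentin, the intermediate filament protein of mesenchymal cells. Its probe (NM_011701) read 62453 and 102306 in the Met-low samples, against 64462 and 99120 in the Met-high samples, and was not saturated. The log2 signals of 6.05 and 6.26 in Met-low and 6.23 and 6.48 in Met-high cells overlapped. The log2 ratio was 0.20 (standard error 0.18, 95% interval -0.28 to 0.68, adjusted p = 0.565 from limma), which bounds the change of *Vim* between a 1.22-fold higher level in Met-low cells and a log2 difference of 0.68 in favour of Met-high cells. Over all tested probes the median log2 ratio was 0.07.

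*Fn1* encodes fibronectin, an extracellular matrix protein to which integrins bind. Its probe (NM_010233) read 2935 and 1954 in the Met-low samples, against 1755 and 1172 in the Met-high samples. The log2 signals were 1.64 and 0.55 in Met-low and 1.03 and 0.08 in Met-high cells, so that Met-low replicate 2 lay between the Met-high arrays. The log2 ratio was -0.54 (standard error 0.50, 95% interval -1.84 to 0.76, adjusted p = 0.558 from limma), and 95.7% of the tested probes had a smaller standard error. Without Met-low replicate 1 the ratio of *Fn1* was 0.00 and without Met-low replicate 2 it was -1.09, so that the data do not settle whether this gene differed.

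Over the 7 tested probes of the 10 genes, 6 had a lower mean in Met-high cells, where 42.9% of all tested probes did. The arrays of the populations did not overlap for 4 of the 7, each time with Met-low on top, as for 23.0% of all tested probes, and for 0 of the 7 with Met-high on top, as for 32.4% of all. A 2-fold lower mean in Met-high cells, the size by which the study selected genes, was met by 2 of the 7, the probe of *Snai2* and the dimmer probe of *Zeb2*, against 5.82% of all tested probes. With a normexp background correction their log2 ratios were -0.98 and -0.79, both short of a 2-fold difference. That correction adds an offset of 50 to each intensity, which draws log2 ratios toward 0, most of all for dim probes. The smaller ratios thus do not decide whether the difference reached 2-fold. A 2-fold higher mean was met by 0 of the 7, against 2.15% of all. These counts describe 5 genes, some with a pair of probes, and are not independent observations. The dimmer *Zeb2* probe, which passed the filter through Met-low alone, is in each of the 3 counts with Met-low on top, and the other 6 probes were well above background on all arrays.

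**Figure D3:**
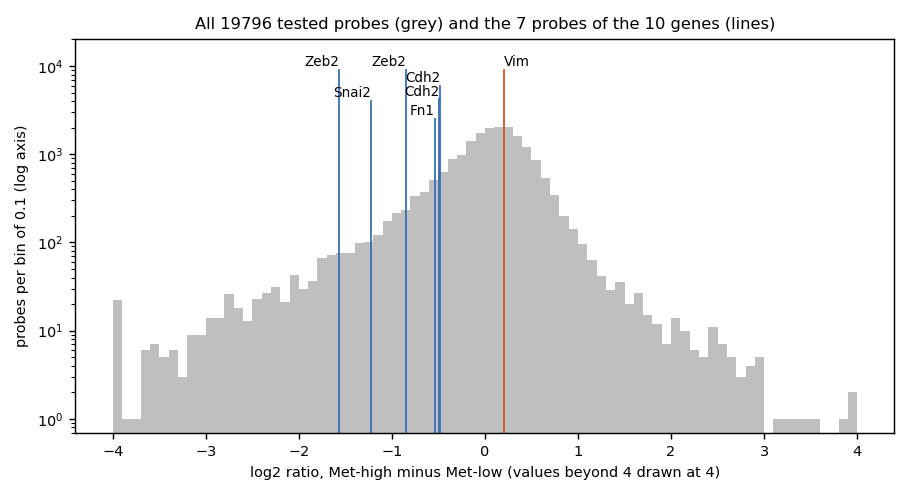
Distribution of the log2 ratio, Met-high minus Met-low (horizontal axis), over all 19796 tested probes (grey bars, probes per bin on a log axis), with lines at the 7 probes of the 10 genes. *Vim* at 0.20 lies near the median of 0.07, while *Snai2* at -1.22 and the *Zeb2* probes at -0.85 and -1.57 lie in the lower tail.

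The profile of *Snai2* over the 4 arrays was compared with those of 11950 other named genes, each centred on its own mean. The nearest by Euclidean distance were *Arap2* (distance 0.0645), *Ccnd2* (distance 0.0956) and *Gnaq* (distance 0.111), with log2 ratios of -1.16, -1.28 and -1.32. With 4 arrays this measure is a description of likeness only.

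Other genes of the transition were read from 6 fixed lists, each gene by its brightest tested probe. Together the lists held 98 genes, of which 56 were tested, and 3 of these were called lower and 1 higher in Met-high cells, against 2.18% and 0.719% of all 11961 named genes tested. The median log2 ratio of the 56 genes was -0.01, and that of all named genes 0.10.

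Of 19 other regulators of the transition, 10 were tested, 1 was called lower and 0 higher in Met-high cells, and the median log2 ratio was -0.13. The called gene was *Sox4*, which encodes an HMG-box factor active in progenitor cells. Its log2 signals were -0.09 and -0.19 in Met-low and -1.26 and -1.33 in Met-high cells. They differed by -1.15 on the log2 scale, with a standard error of 0.15 (adjusted p = 0.0424 from limma). This call was lost with each array left out in turn (adjusted p between 0.124 and 0.159), with the mean of its probes (0.0819) and without a filter on dim probes (0.189). A second *Sox4* probe gave -1.41, with a standard error of 0.55 (adjusted p = 0.227).

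The largest uncalled ratios among these regulators were those of *Sox9*, a neural crest factor, at -1.32 (adjusted p = 0.118 from limma), and of *Tcf4*, an E-box binding partner of other helix-loop-helix factors, at -0.83 (adjusted p = 0.0745). *Tcf4* passed with the brightest probe of each gene (adjusted p = 0.0464) and with the mean of the probes (0.0484). Genes above background on no array numbered 7, among them *Snai3*, *Prrx1* and *Foxc2*.

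Cofactors through which Snail and Zeb proteins repress their targets, and enzymes that set the stability of Snail, formed a list of 19 genes. Of these, 18 were tested and 0 were called, with a median log2 ratio of 0.16 (0.01 with the 75th percentile taken over detected probes). *Sin3a*, a corepressor scaffold, had a log2 ratio of 0.43 (adjusted p = 0.204 from limma), and *Gsk3b*, the kinase that marks Snail for degradation, had -0.59 (adjusted p = 0.393), with overlapping arrays, while its other 2 probes gave -0.77 (adjusted p = 0.373) and -0.91 (adjusted p = 0.13).

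Of 12 further cadherin genes, 3 were tested and 7 were above background on no array, among them *Cdh3*, the P-cadherin of epithelia and melanocytes. *Cdh13* encodes T-cadherin, which lacks the cytoplasmic tail of other cadherins. It had log2 signals of 0.20 and -0.33 in Met-low and -1.94 and -1.76 in Met-high cells. It was called lower in the Met-high population, at -1.79 on the log2 scale with a standard error of 0.24 (adjusted p = 0.042 from limma), and the call was lost when Met-low replicate 1 (0.0868), Met-high replicate 1 (0.11) or Met-high replicate 2 (0.0893) was left out and with quantile normalization (0.0546). *Cdh19*, known from Schwann cell precursors, had a log2 ratio of -0.83 (adjusted p = 0.166), without overlap between the populations, and *Cdh8* had 0.23 (adjusted p = 0.586).

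Catenins and linkers, which join cadherins and nectins to actin, gave 7 tested genes of 10, of which 0 were called. The log2 ratio was 0.31 for *Ctnnb1* (beta-catenin, adjusted p = 0.346 from limma), 0.12 for *Ctnna1* (alpha-catenin, adjusted p = 0.748), -0.44 for *Ctnnd1* (p120 catenin, adjusted p = 0.343) and 0.65 for *Vcl* (vinculin, adjusted p = 0.133). A second *Vcl* probe gave 0.24 (adjusted p = 0.78 from limma), with overlapping arrays. *Nectin2*, an adhesion receptor of the same junctions, had the highest at 1.08 (adjusted p = 0.0895), without overlap of the populations, and its second probe had 0.92 (adjusted p = 0.0666). With the mean of both probes the adjusted p of *Nectin2* was 0.0462. *Arvcf* had a log2 ratio of 0.17 (adjusted p = 0.708) and *Afdn* -0.09 (adjusted p = 0.955), each well above background on 3 arrays.

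Of 14 genes of epithelial junctions and keratins, 4 were tested, 9 were above background on no array, and 1 was called. The 9 included *Epcam*, *Ocln*, *Dsp*, *Krt8* and *Krt18*, defining genes of epithelial cells. *F11r*, which encodes the tight junction protein JAM-A, was called higher in Met-high cells. It read log2 signals of -1.90 and -1.37 in Met-low and 1.17 and 0.88 in Met-high cells. Its log2 ratio was 2.66, with a standard error of 0.25 (adjusted p = 0.0232 from limma). The adjusted p was 0.05 without Met-high replicate 1, which loses the call, 0.119 without a filter on dim probes and 0.00928, the lowest without a block, with 1 probe for each gene. The other 3 tested genes, *Tjp1*, *Cldn7* and *Pkp2*, had log2 ratios between 0.06 and 0.37 and were not called.

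Of 24 mesenchymal genes, 14 were tested, 1 was called lower and 0 higher in Met-high cells, and the median log2 ratio was -0.40. The called gene was *Tgfbi*, a matrix protein induced by TGF-beta, with log2 signals of -0.22 and -1.01 in Met-low and -3.30 and -3.02 in Met-high cells. Its log2 ratio was -2.55 with a standard error of 0.31 (adjusted p = 0.0358 from limma). The call was lost without Met-high replicate 1 (0.0826), without Met-high replicate 2 (0.0657) and with quantile normalization (0.0543).

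The other 13 tested mesenchymal genes did not pass the test, and the 2 with the largest ratios are given here. Some genes with smaller ratios and less spread lay closer to the threshold, in both directions. *S100a4* had a log2 ratio of -1.45 (adjusted p = 0.304 from limma), with log2 signals of -2.70 and -0.63 on the Met-low arrays. The ratio was -2.49 without Met-low replicate 1 and -0.42 without Met-low replicate 2. A second *S100a4* probe gave -0.97 (adjusted p = 0.403 from limma), with overlapping arrays. *Tagln* had 1.14 (adjusted p = 0.681), with log2 signals of -2.26 and 2.07 on the Met-high arrays, and -1.02 without Met-high replicate 2. Of the leukocyte markers, 1 of 3 *Itgam* probes was well above background on all arrays, with a log2 ratio of -0.65 (adjusted p = 0.242), and the other 2 on 2 arrays each. *Adgre1* was detected on Met-low replicate 2 alone, and *Ptprc*, which defines these cells, on no array. Summed over the 3 leukocyte markers on the array, the linear signal was 1.95 to 3.15 in Met-low and 1.4 to 1.72 in Met-high cells, and its part in the differences above was not tested. The 4 endothelial markers summed to 5.48 to 6.31 in Met-low and 6.72 to 8.44 in Met-high cells. Of these, *Kdr* was well above background on all arrays with 1 of its 2 probes (log2 signals of 2.65 and 2.43 in Met-low and 3.07 and 2.73 in Met-high cells, log2 ratio 0.36, adjusted p = 0.354), *Pecam1* on 3 arrays, and *Tek* and *Cldn5* on none. The 3 keratinocyte markers summed to 2.49 to 3.71 in Met-low and 2.59 to 3.97 in Met-high cells. The part of both lists was not tested either.

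**Figure D4:**
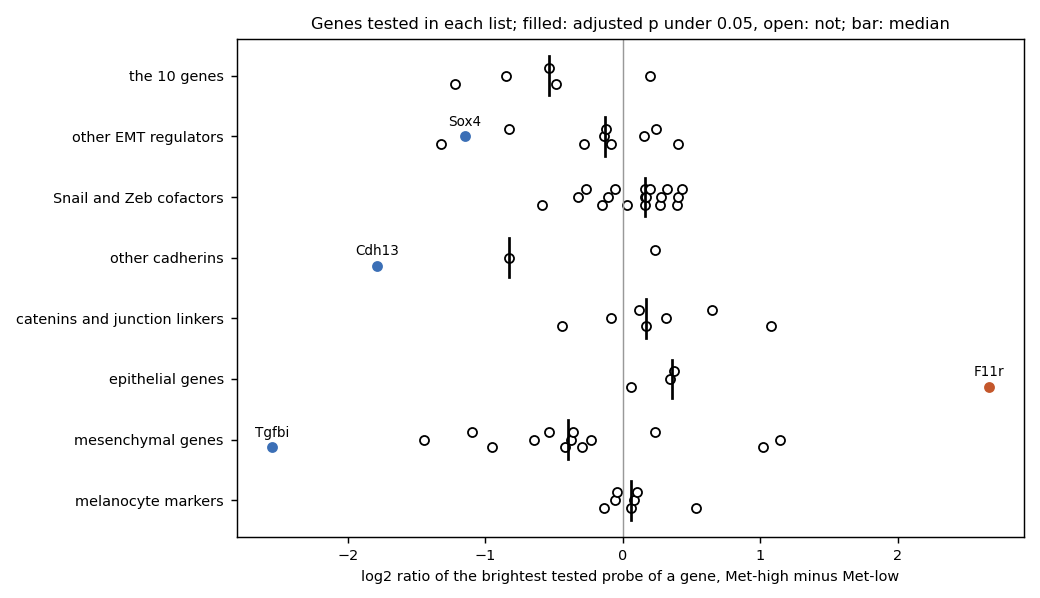
Log2 ratio, Met-high minus Met-low (horizontal axis), of the brightest tested probe of each gene in the 10 genes, the 6 other lists and the melanocyte markers. Filled symbols passed an adjusted p under 0.05, and bars are medians. The called genes are *Sox4*, *Cdh13* and *Tgfbi*, lower in Met-high cells, and *F11r*, higher in Met-high cells.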

How the data were processed

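Total RNA of 2 Met-low and 2 Met-high samples was hybridised to 1-colour Agilent mouse arrays, and 2 arrays for each population limit the precision of every value. The authors deposited 1 scanner text file for each array, where a spot carries its Cy3 intensity (linear, with background already subtracted by the software) and marks for outlier, saturated and clearly detected spots. Those files were written by Feature Extraction 11.0.1.1, whereas the labels give 10.7.3.1. A further file from the authors holds log2 values for each array. Per their methods, these values went through Lowess, a floor, scaling of each array to its 75th percentile and centring of each gene on its median in GeneSpring. Between 93.5% and 100% of these values for each array came within 0.01 of the log2 intensity minus the array's 75th percentile, centred on the median of each probe.

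After a floor of 0.01, below which 0 spots lay, log2 was taken and the 75th percentile of the array subtracted. Between 207 and 232 outlier spots for each array were left out, no spot was saturated, and spots of a probe were averaged. A probe was taken as well above background where at least 50% of its unflagged spots were. RefSeq accessions of GRCm38.p6 named 27427 of 39429 probes, and the other 12002 were tested without a name. Probes detected in this sense on each array of 1 population or of both entered a two-sided test by limma 3.58.1 (lmFit, eBayes; R 4.3.3), with no replicate block. The p-values measure the spread between these 4 samples of 1 line. On simulated data for this comparison, with 200 of 19776 probes changed by 2 on the log2 scale, the fit called 57.5% of these and 3 unchanged probes. That change is larger than the ratio of any tested probe of the 10 genes, and the arrays were simulated without regard to replicate number. The share called thus does not carry over to the smaller ratios of these genes. If a gene had several tested probes, the brightest on average stood for it in the lists.

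The genes and lists were chosen with earlier results of these data known, and 2 genes of the lists are not reported here. Named were the 10 genes, up to 3 called genes in each direction and the 2 largest uncalled ratios on all arrays in each list, all tested catenins and linkers, *Cdh3*, the 3 nearest profiles to *Snai2*, the fixed cell type markers, and examples of genes that were not detected or, for epithelial genes, not called. Alternatives were a normexp background correction (offset 50, on median intensities), quantile normalization, the 75th percentile over detected probes, removal or tightening of the filter on dim probes, flagged spots kept, the brightest probe or the mean of the probes of a gene, the authors' processed values, a mean-variance trend, the replicate number as a block, each array left out in turn, and a 2-fold difference without a test. With 1 slide and 1 scan, neither could enter as a block. Python 3.11.15 with pandas 2.3.3, numpy 2.4.6 and matplotlib 3.10.9 served for tables and figures.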

Additional observations from a re-analysis of the deposited data

How the results depend on the processing

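None of the 7 tested probes of the 10 genes passed an adjusted p under 0.05 in any alternative without a replicate block. With the replicate number as a block, *Snai2* (adjusted p = 0.0205 from limma) and the *Zeb2* probes (0.0203 and 0.0311) passed, 3 probes in all, with log2 ratios of -1.22, -1.57 and -0.85. The numbers mark no stated pairing, and deviations of same-numbered arrays had a correlation of 0.527 over probes. Over all probes that fit called 1795 lower and 1470 higher in Met-high cells, against 410 and 110 without the block. In the 6 other lists it called 10 lower and 4 higher, against 3 and 1. Among the genes named as uncalled, *Sox9* (0.0185), *Tcf4* (0.0316), *Gsk3b* (0.0491), *Cdh19* (0.0304), *Vcl* (0.04) and *Nectin2* (0.0255) passed with the block.

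Over all probes, the counts lower and higher in Met-high cells were 0 and 0 without a filter on dim probes and 1153 and 425 by a 2-fold difference without a test, which took 2 probes of the 10 genes, both lower. Those higher numbered 63 with the 75th percentile over detected probes, 231 with the brightest probe of each gene, 215 with the mean of the probes of a gene and 189 with a mean-variance trend. With each array left out in turn, 215 to 531 probes were called lower and 34 to 271 higher, and 0 to 1 probes of the 10 genes lower, that 1 being *Snai1* without Met-low replicate 2. In the 6 other lists the count lower was 1 with quantile normalization, 0 without a filter, 5 with the brightest probe and 0 to 3 with each array left out (0 without either Met-high array), and the count higher was 0 without a filter, 2 with the brightest probe, 3 with the mean of the probes and 0 to 4 with each array left out.

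With each array left out, the log2 ratio of *Fn1* lay between -1.09 and 0.00028, of *Afdn* between -0.97 and 0.80, of *Arvcf* between -0.10 and 0.44, of *Cdh8* between -0.03 and 0.50, of *Ctnna1* between -0.09 and 0.34 and of *Tagln* between -1.02 and 3.30. *Afdn* was at 0.04 with normexp and 0.10 with quantile normalization, and *Ctnna1* at -0.0026 with quantile normalization and -0.02 with the percentile of detected probes. That percentile moved the median log2 ratio of all probes from 0.07 to -0.08. Causes were not tested. For probes that were not well above background, no difference was detectable at this signal.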
